A study of Mus musculus with 4 samples.

Results

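The genes described here are the D cyclins, their kinases Cdk4 and Cdk6, the Cip/Kip and Ink4 inhibitors that restrain them, and the retinoblastoma gene Rb1. They were chosen by name, and all 10 symbols were found, on 1 row each, among the 55401 genes of the deposited table. RNA was sequenced in 4 libraries from cells labelled as female germline stem cells (FGSCs) from the ovary of C57BL/6 mice. Of these libraries, 2 came from cells treated with the solvent DMSO and 2 from cells treated with daidzein. Daidzein is an isoflavone of soybeans and a ligand of oestrogen receptors. The cells of all 4 libraries grew in serum with 4 added factors, EGF, GDNF, basic FGF and leukemia inhibitory factor. Several concentrations of daidzein were tried and the best was kept, but its dose and duration, the age of the animals and whether replicates are separate cultures are not stated in the labels, so p-values reflect no more than the spread among the 4 libraries, which could be technical. The series title concerns the Akt pathway and proliferation, so the question here is whether transcripts of the G1 machinery differed between the treatments.

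Passage from G1 into S phase is gated by D cyclins, which are made in response to growth factors and activate Cdk4 and Cdk6. These kinases phosphorylate the retinoblastoma protein, which otherwise holds E2F transcription factors in check. Ink4 proteins bind Cdk4 and Cdk6 directly, whereas Cip/Kip proteins bind whole cyclin and kinase complexes and block Cdk2 in particular. Akt acts on this network largely through protein stability, localisation and the Foxo factors that transcribe Cdkn1b. Transcript counts measure Cdkn1b transcript, but not protein stability, localisation or the activity of Foxo proteins.

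Library totals ranged from 16230400 to 18537134 reads counted in genes. Listed germline markers, which include the oocyte and meiotic genes Figla, Zp3 and Sycp3, were near absent. Of the 10, 0 averaged at least 1 FPKM (reads scaled to exon length and library total, as the authors deposited them). Pou5f1, Dppa3 and Figla had 0 reads in every library, and Ddx4 and Dazl at most 2 and 1. The summed level of the 10 was 0.15 to 0.41 FPKM with DMSO and 0.06 to 0.33 with daidzein. Of 10 ovarian somatic and stromal markers, 1, Star, averaged at least 1 FPKM, and their sum was 2.46 to 2.55 FPKM with DMSO and 1.72 to 2.71 with daidzein. The 11 listed mast cell markers summed to 787 to 806 FPKM with DMSO and 801 to 831 with daidzein, mostly Cpa3, Gata2 and Kit. Of the 11, 5 averaged at least 1 FPKM, among them Ms4a2 at 1.02 to 1.73. Fcer1a, Mcpt4, Tpsb2 and Tpsab1 had 0 reads, and Hdc and Cma1 reached no more than 0.03 and 0.15 FPKM in any library. A further 12 markers of other blood cells summed to 112 to 120 and 110 to 114 FPKM. That sum came mostly from Adgre1, a macrophage marker, at 36.0 to 40.5 FPKM, and from the megakaryocyte markers Itga2b and Pf4. Itga2b stood at 37.95 to 42.1 FPKM, Pf4 at 21.6 to 27.7 and the pan-leukocyte Ptprc at 8.72 to 9.39. Other macrophage and myeloid markers of the list were low. Csf1r and Mpo reached no more than 0.02 FPKM in any library, and Lyz2 ran from 0.66 to 1.27. Elane, Cd3e and Hbb-bt were among those at 0. The values below describe libraries of that make-up, and the part these markers have in them was not tested.

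The level of the 10 genes spanned a wide range that was repeated in every library. Cdk4 was by far the most abundant, at a mean of 169.8 FPKM over the 4 libraries and above 97.2% of the 11700 genes with enough reads to test. Its close relative Cdk6 was the least abundant, at 2.08 FPKM, below the median of 7.07 FPKM for tested genes. Between them, in order, lay Ccnd2 at 33.7, Ccnd1 at 30.3, Ccnd3 at 29.0, Cdkn1a at 21.9, Cdkn2d at 16.4, Cdkn2c at 12.0, Cdkn1b at 5.49 and Rb1 at 2.79 FPKM. For 7 of the 9 pairs of neighbours in this order the ranges over the 4 libraries lay apart. The exceptions were Ccnd2 against Ccnd1 and Ccnd1 against Ccnd3, whose ranges overlapped.

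**Figure D1:**
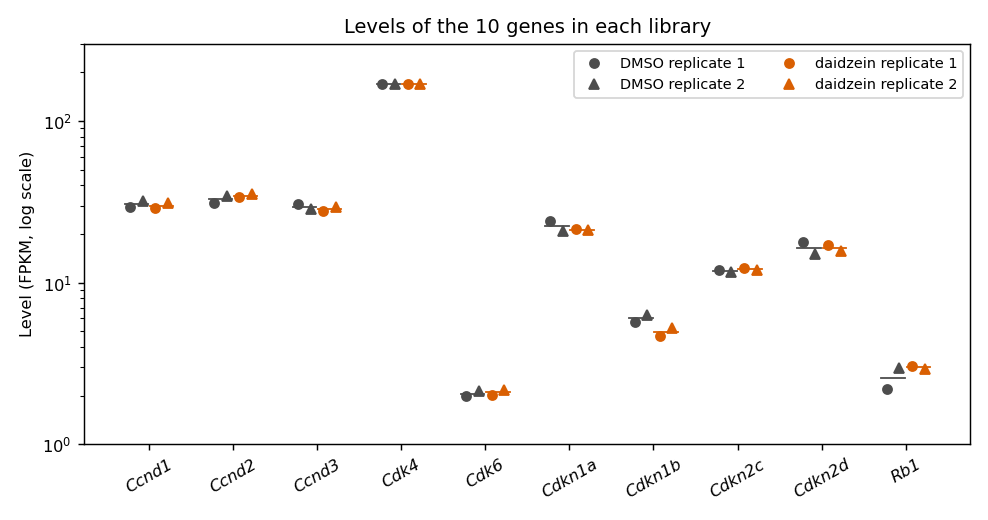
Level of each gene in FPKM on a log scale, with DMSO libraries in grey, daidzein libraries in orange, circles for replicate 1, triangles for replicate 2 and short lines for group means. Cdk4 lies near 170 FPKM and Cdk6 near 2 in all 4 libraries, and Cdkn1b is the gene whose groups do not overlap. Groups did not overlap for 29.7% of all tested genes in either direction, and for 15.0% with daidzein lower.

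Because the contrast between the 2 kinases was the widest among paralogous members, the stretches just before their RefSeq transcription starts are shown, on GRCm38.p6, plus strand, 5′ to 3′, with every match to CACGTG in capitals. CACGTG is the E-box that Myc and Max, among other factors, can bind. The first stretch is chr10:127063285-127063530, from 250 to 5 bases before the Cdk4 start. The second is chr5:3343643-3343731, from 250 to 162 bases before the Cdk6 start, and ends where the first annotated Cdk6 exon of that window begins.
Cdk4: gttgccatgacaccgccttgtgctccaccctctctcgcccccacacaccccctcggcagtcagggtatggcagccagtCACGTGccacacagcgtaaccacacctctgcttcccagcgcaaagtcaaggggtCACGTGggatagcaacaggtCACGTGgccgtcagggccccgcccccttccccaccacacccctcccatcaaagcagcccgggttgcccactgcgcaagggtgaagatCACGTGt
Cdk6: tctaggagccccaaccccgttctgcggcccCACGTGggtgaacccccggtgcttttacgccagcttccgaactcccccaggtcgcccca

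The Cdk4 stretch of 246 bases held 4 matches, whose first bases lay 172, 118, 98 and 11 bases before the start. The Cdk6 stretch of 89 bases held 1, at 220 bases. Over the full 250 bases before each start the counts were also 4 and 1. The Cdk6 stretch lies within the annotated Cdk6 gene, which begins at 3341485. RefSeq windows of 250 bases before a start were at hand for 7 of the 10 genes, some with several starts, and not for Ccnd1, Ccnd2 and Rb1. Over all 32851 such windows of the mouse table, 6.02% held CACGTG and 7, or 0.0213%, held 4 or more. A search of both strands for GTAAACA, letters that Foxo factors can bind, found a match in 1 of the 10 windows of these genes, a Ccnd3 window, against 3.17% of all windows. None of the E2F letters TTTCCCGC, TTTGGCGC, TTTCGCGC and TTTGCCGC, on either strand, occurred in them, against 1.86% of all windows. Matches to so few letters describe the sequence and do not show that a factor was bound. Myc itself stood at 199 and 178 FPKM with DMSO and 184 and 179 with daidzein.

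The 3 D cyclins, which confer growth factor dependence on the kinases, were present at nearly equal FPKM. That near tie depends on the exonic lengths used, 4709 bases for Ccnd1, 9409 for Ccnd2 and 8775 for Ccnd3. In reads per library, Ccnd1 had 2248 to 2717, Ccnd2 4749 to 6189 and Ccnd3 4186 to 4754. Ccnd1 (ENSMUSG00000070348; GRCm38 chromosome 7, 144929931 to 144939925, minus strand) encodes cyclin D1 and stood at 29.4 and 31.9 FPKM with DMSO, then 28.9 and 31.1 with daidzein. Ccnd2 (ENSMUSG00000000184; chromosome 6, 127125162 to 127152193, minus strand) encodes cyclin D2, the form that ovarian granulosa cells depend on to proliferate, and stood at 31.1 and 34.3 FPKM with DMSO and 33.7 and 35.5 with daidzein. Ccnd3 (ENSMUSG00000034165; chromosome 17, 47505051 to 47599691, plus strand) encodes cyclin D3 and stood at 30.6 and 28.6 FPKM with DMSO and 27.8 and 29.2 with daidzein. In each of the 3 genes the groups overlapped, and Ccnd2 exceeded Ccnd1 in 4 of 4 libraries.

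Relative to DMSO, the fold with daidzein was 0.979 for Ccnd1 (95% interval 0.892 to 1.07), 1.06 for Ccnd2 (0.973 to 1.15) and 0.964 for Ccnd3 (0.887 to 1.05). By the quasi-likelihood test of edgeR, adjusted after Benjamini and Hochberg over all tested genes, none of the 3 passed, each at an adjusted p of 1.00, where 0.0171% of all tested genes did. In Ccnd1 the replicate 2 library exceeded the replicate 1 library within each group, by a ratio per library total of 1.08 with DMSO (1.02 to 1.15) and 1.08 with daidzein (1.02 to 1.14), where the exact binomial intervals cover counting error only. The same ratio in Ccnd2 was 1.104 (1.06 to 1.15) and 1.05 (1.01 to 1.09). In Ccnd3 the replicates went opposite ways, at 0.934 (0.895 to 0.974) with DMSO and 1.05 (1.01 to 1.098) with daidzein. Replicates of all 3 D cyclins thus differed by more than counting error.

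Expressed as shares of their summed FPKM, the D cyclins split almost evenly. Ccnd2 made up 34.2% and 36.2% with DMSO and 37.3% and 37.0% with daidzein, so its daidzein libraries lay above its DMSO libraries, by 1.99 percentage points of the means. Ccnd1 held 32.3% and 33.7%, then 32.0% and 32.5%. Ccnd3 held 33.6% and 30.1%, then 30.7% and 30.5%, its highest share being in DMSO replicate 1. A two-sided exact permutation test over the 4 libraries gave p = 0.333 for Ccnd2, the smallest that 2 libraries against 2 allow, 0.667 for Ccnd1 and 1 for Ccnd3. Adjusted over the 4 shares tested, Cdk4 included, each exact p was 1. The sum of the D cyclins was 91.1 and 94.8 FPKM with DMSO and 90.4 and 95.8 with daidzein.

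**Figure D2:**
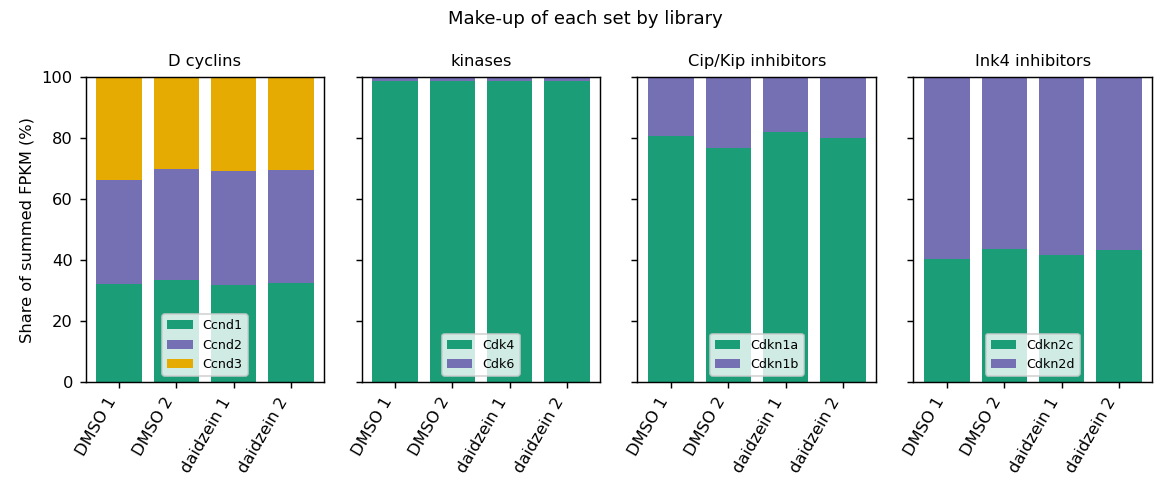
Share of each gene in the summed FPKM of its set, in percent, for each of the 4 libraries (numbers are replicates). The D cyclins split nearly evenly, Cdk4 fills almost the whole kinase bar, and Cdkn1a and Cdkn2d are the larger parts of the inhibitor sets in every library.

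Among the kinases, almost all transcript was Cdk4. Cdk4 (ENSMUSG00000006728; chromosome 10, 127063534 to 127067920, plus strand) had 8889 and 9494 reads with DMSO and 9529 and 10188 with daidzein, or 169 and 171 FPKM against 171 and 169. Cdk6 (ENSMUSG00000040274; chromosome 5, 3341485 to 3531008, plus strand) had 455 and 508 reads with DMSO and 486 and 563 with daidzein, or 2.00 and 2.12 FPKM against 2.02 and 2.17. Per kilobase, Cdk4 stood at 84.3 and 80.5 times Cdk6 with DMSO and 84.5 and 77.95 times with daidzein. Its share of the pair was 98.7% to 98.8% in every library, with an exact permutation p of 1 between groups.

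With daidzein, Cdk4 had the smallest difference of the 10 genes, at 1.00-fold (0.930 to 1.08), while Cdk6 had 1.02 (0.887 to 1.16). Differences larger than those bounds lay outside the 95% intervals. Both adjusted p were 1.00 by edgeR. Within a group, the Cdk4 replicates differed by no more than counting error, with ratios per library total of 1.01 (0.984 to 1.04) and 0.992 (0.964 to 1.02).

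The Cip/Kip inhibitors included the 1 gene of the 10 whose groups did not overlap, as was so for 29.7% of all tested genes, 15.0% being lower with daidzein. Cdkn1b (ENSMUSG00000003031; chromosome 6, 134920401 to 134925513, plus strand) encodes p27, which holds Cdk2 inactive in resting cells. It had 424 and 493 reads with DMSO and 364 and 443 with daidzein, or 5.74 and 6.33 FPKM against 4.65 and 5.25. Both daidzein libraries lay below both DMSO libraries in FPKM, and daidzein replicate 1 was the lowest, with means of 6.04 ± 0.417 FPKM for DMSO and 4.95 ± 0.424 for daidzein (SD, n = 2 each). The fold was 0.821, with a 95% interval of 0.706 to 0.954, and edgeR's unadjusted p was 0.0128. After adjustment over all 11700 genes the edgeR p was 1.00, so Cdkn1b did not pass. A larger difference in either direction was seen in 9.62% of tested genes. In a bulk culture, fewer cells with the transcript and less transcript per cell cannot be told apart.

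The difference in Cdkn1b kept its direction with each library left out, at log2 differences of -0.37 to -0.21 against -0.28 with all 4. Its unadjusted edgeR p was then 0.111 without daidzein replicate 1, 0.0995 without DMSO replicate 2, 0.00663 without DMSO replicate 1 and 0.00696 without daidzein replicate 2. Its adjusted p ran from 0.461 to 1.00 over all alternatives, the lowest being that with the replicate number as a block. The 3 listed Foxo genes, whose factors can transcribe Cdkn1b, did not share a direction: the fold was 1.09 (0.8975 to 1.33) for Foxo1, 0.986 (0.880 to 1.104) for Foxo3 and 1.00 (0.876 to 1.14) for Foxo4. Each had an edgeR adjusted p of 1.00, and Foxo1 was the lowest in level, at 1.27 and 1.38 FPKM with DMSO and 1.38 and 1.51 with daidzein.

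Cdkn1a (ENSMUSG00000023067; chromosome 17, 29090976 to 29100727, plus strand) encodes p21, a direct target of p53, and was the more abundant Cip/Kip gene. It stood at 24.1 and 21.0 FPKM with DMSO and 21.4 and 21.2 with daidzein. DMSO replicate 1 was the high library, and the other DMSO library lay below both daidzein libraries. Its fold was 0.945 (0.848 to 1.05), with an edgeR adjusted p of 1.00, and its log2 difference of -0.08 became 0.03 with DMSO replicate 1 left out and -0.18 with DMSO replicate 2 left out. Cdkn1a stood at 4.20 and 3.32 times Cdkn1b per kilobase with DMSO and 4.59 and 4.05 times with daidzein. The third Cip/Kip gene, Cdkn1c, had 1 read in each replicate 2 library and 0 in each replicate 1 library.

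Of the 4 Ink4 genes, 2 were well detected and the others were not detected at all. Cdkn2c (ENSMUSG00000028551; chromosome 4, 109660876 to 109667189, minus strand), encoding p18, stood at 12.0 and 11.7 FPKM with DMSO and 12.3 and 12.0 with daidzein, a fold of 1.02 (0.8995 to 1.17). Cdkn2d (ENSMUSG00000096472; chromosome 9, 21288410 to 21291407, minus strand), encoding p19, stood at 17.8 and 15.1 FPKM with DMSO and 17.1 and 15.7 with daidzein, a fold of 0.997 (0.854 to 1.16). Cdkn2d was the higher of them in 4 of 4 libraries, and the edgeR adjusted p was 1.00 for each. In Cdkn2d the replicate 2 libraries were the low ones of each group, and its log2 difference of 0.00 became 0.12 with DMSO replicate 1 left out and -0.12 with DMSO replicate 2 left out.

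Cdkn2a, which encodes p16 and Arf, and Cdkn2b, which encodes p15, had 0 reads in all 4 libraries. Over the 4 libraries together 0 reads allow up to 3 counts, or 0.0434 CPM (counts scaled to the library total), as a limit on counting error only. They lie next to each other on chromosome 4, Cdkn2a at 89274471 to 89294653 and Cdkn2b at 89306299 to 89311039. The neighbours were read out after these values were seen. Mtap (chromosome 4, 89137122 to 89181081), an enzyme of methionine salvage that most tissues express, and Klhl9 (chromosome 4, 88718292 to 88722465), a ubiquitin ligase adaptor, also had 0 reads in every library. The run of annotated genes without a read around Cdkn2a covered 75 genes over 3107 kb, 35 of them protein-coding, including many interferon genes.

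The nearest protein-coding genes with a mean of at least 1 FPKM were Focad before it (chromosome 4, 88094629 to 88411011), at 544 and 724 reads with DMSO and 556 and 747 with daidzein, and Caap1 after it (chromosome 4, 94500081 to 94556796), at 368 and 390 against 391 and 427. In the 6.09 Mb between them, 1 of 43 protein-coding genes had any read, Hacd4, with at most 2 per library. Of all 110 annotated genes between them, 5 had a read. At the 2 edges of the run lay processed pseudogenes, Mrpl48-ps with 338 to 388 reads per library and Gm12669 with 36 to 68. Whether the reads of these pseudogenes came from their own loci was not tested. Both groups lacked reads within the run alike, and read counts do not measure gene copy number.

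**Figure D3:**
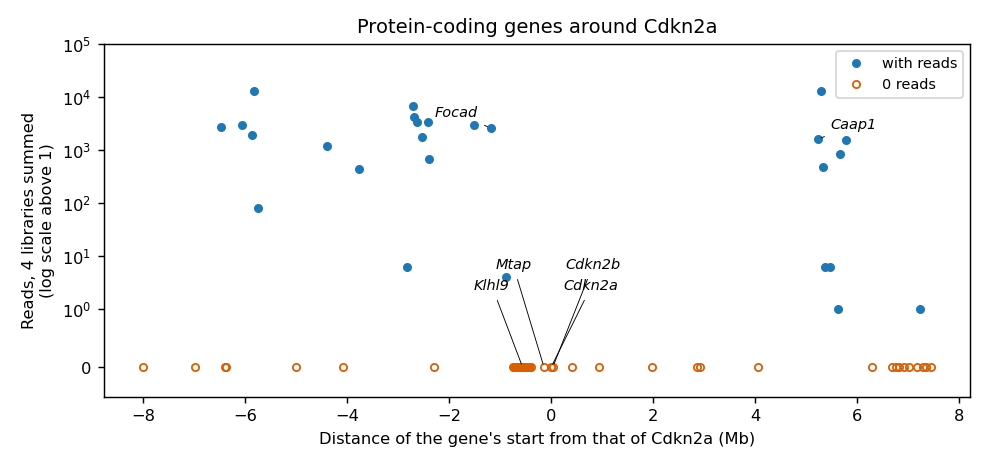
Reads summed over the 4 libraries for protein-coding genes, on an axis that is logarithmic above 1, against the distance of each gene's start from that of Cdkn2a in Mb. Open orange circles are genes with 0 reads, which include Klhl9, Mtap, Cdkn2a and Cdkn2b, and filled circles are genes with reads, of which Focad and Caap1 are the nearest with a mean of at least 1 FPKM.

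Rb1 (ENSMUSG00000022105; chromosome 14, 73183673 to 73325822, minus strand), the substrate of these kinases, was low and uneven among replicates. It had 214 and 306 reads with DMSO and 315 and 327 with daidzein, or 2.19 and 2.97 FPKM against 3.05 and 2.93. The low library was DMSO replicate 1, while the other DMSO library lay between the daidzein libraries. The DMSO replicates differed by 1.36-fold per library total (1.14 to 1.62 by exact binomial interval), more than counting error. With daidzein the fold was 1.16 (0.9498 to 1.41), with an edgeR adjusted p of 1.00. The log2 difference of 0.21 became 0.44 when DMSO replicate 2 was left out and 0.01 when DMSO replicate 1 was. Its size thus depended on which control library was kept. The related pocket protein genes Rbl1, at 6.71 to 8.68 FPKM, and Rbl2, at 4.96 to 5.20, each stood above Rb1 in 4 of 4 libraries.

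Taking the 10 genes as a set, 5 were higher and 5 lower with daidzein, beside 5697 higher and 6003 lower of all 11700 tested genes. Of the 10, 0 passed the adjusted threshold of 0.05 in edgeR, where 0.0171% of all tested genes did (Fos and Fosb, both lower). DESeq2 and limma trend on FPKM called 0 of the 10 as well. At an unadjusted p under 0.05 there was 1 by each of the 3 tools, Cdkn1b, against 2.91% of all tested genes by edgeR. The 3 tools used the same 4 libraries, so they are not separate evidence. The unadjusted p of Cdkn1b was 0.0477 by DESeq2 and 0.0352 by limma trend with a pseudocount of 1. Groups did not overlap for 1 of 10, lower with daidzein, against 15.0% of tested genes that were lower in this way and 29.7% in either direction. The median log2 difference was 0.00, as over all tested genes, and the median size of the difference was 0.04 against 0.06. All 10 intervals of the fold lay between 0.706 and 1.41, and 9 of them included 1.

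**Figure D4:**
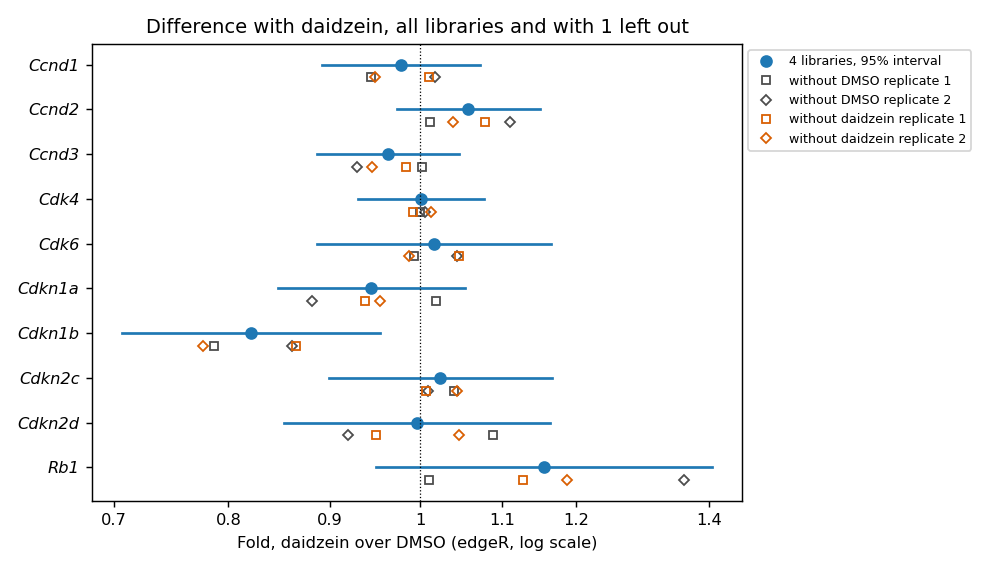
Fold of daidzein over DMSO on a log scale from edgeR, as filled circles with 95% intervals for the 4 libraries, and open symbols for fits with 1 library left out. The interval of Cdkn1b, 0.706 to 0.954, is the only one of the 10 that does not include 1, and the open symbols of Rb1 spread the widest, from 1.01 to 1.36.

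The rest of the G1 machinery was followed with 6 lists covering 83 other genes, of which 79 entered the test. With daidzein 39 of them stood higher and 40 lower, and by edgeR, DESeq2 and limma trend alike 0 passed after adjustment. Over all 11700 tested genes 5697 stood higher and 6003 lower, and the direction counts given below for each list were not tested. At an unadjusted p under 0.05 there was 1 of the 79 by edgeR, where 2.91% of all tested genes reached it, 0 by DESeq2 and 1 by limma trend. That is below the share over all genes, so nothing is read from it about these lists. The gene was Gata1, an erythroid and mast cell transcription factor, at 2.02 and 2.08 FPKM with DMSO and 1.31 and 1.59 with daidzein, a fold of 0.709 (0.522 to 0.964). Its edgeR adjusted p was 1.00.

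Cyclin E, its kinase Cdk2 and the Cdk-activating kinase act after or upon the D cyclin kinases, and 6 of 8 such genes were higher and 2 lower. The chaperone partner Cdc37, which loads Cdk4 onto Hsp90, averaged 71.7 FPKM, the cyclin E gene Ccne1 37.3 and the activating cyclin Ccnh 22.6. Folds in this list ran from 0.982 for Cdc37 to 1.08 for Ccne2 (0.963 to 1.21), the second cyclin E gene, and Mnat1, an assembly factor of the activating kinase, had 1.06 (0.913 to 1.23). Of the 4 other Cdk inhibitor genes, only the phosphatase gene Cdkn3 could be tested, at 6.20 FPKM and a fold of 1.07 (0.893 to 1.28).

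Pocket proteins, E2F factors and their partners, which receive the signal of the kinases, had 8 of 17 higher and 9 lower. E2f4, the main repressive E2F of resting cells, ran from 126 to 136 FPKM, and the means were 119 for its partner Tfdp1 and 54.2 for the histone-binding Rbbp4. The smallest p belonged to E2f7, an atypical repressor, at a fold of 1.13 (0.967 to 1.31), and E2f5, another repressor, at 0.861 (0.690 to 1.07). Genes that E2F factors activate for S phase had 9 of 23 higher and 14 lower, with folds from 0.952 to 1.05. Pcna, the replication clamp, averaged 225 FPKM with a fold of 0.992 (0.921 to 1.07), the helicase subunit Mcm3 195 with 0.983 (0.913 to 1.06), and Rrm2, the regulated subunit of ribonucleotide reductase, 137 with 1.00 (0.929 to 1.08). Mcm2 and Rrm1 had the smallest p of that list, at folds of 0.959 (0.888 to 1.03) and 0.968 (0.898 to 1.04).

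Among 15 genes for the turnover of D cyclins and p27, 10 were higher and 5 lower. Cks1b, which helps the ligase SCF-Skp2 bind p27, averaged 173.5 FPKM, the Cul4 adaptor Ddb1 110.5 and the SCF core subunit Skp1a 89.9. The smallest p fell on Fbxo31 and Ambra1, receptors that target D cyclins for degradation, at folds of 0.910 (0.810 to 1.02) and 0.928 (0.830 to 1.04). Skp2, the receptor for p27, stood at 5.47 and 5.76 FPKM with DMSO and 5.63 and 6.05 with daidzein. Of 15 tested regulators of transcription of these genes, 5 were higher and 10 lower, and Klf4 had 0 reads. The most abundant were Gata2, a blood progenitor and mast cell factor, at 244 FPKM, Myc at 185 and Ctnnb1, the beta-catenin gene, at 94.3. Sp1, a general promoter factor, had a fold of 1.06 (0.9496 to 1.18).

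**Figure D5:**
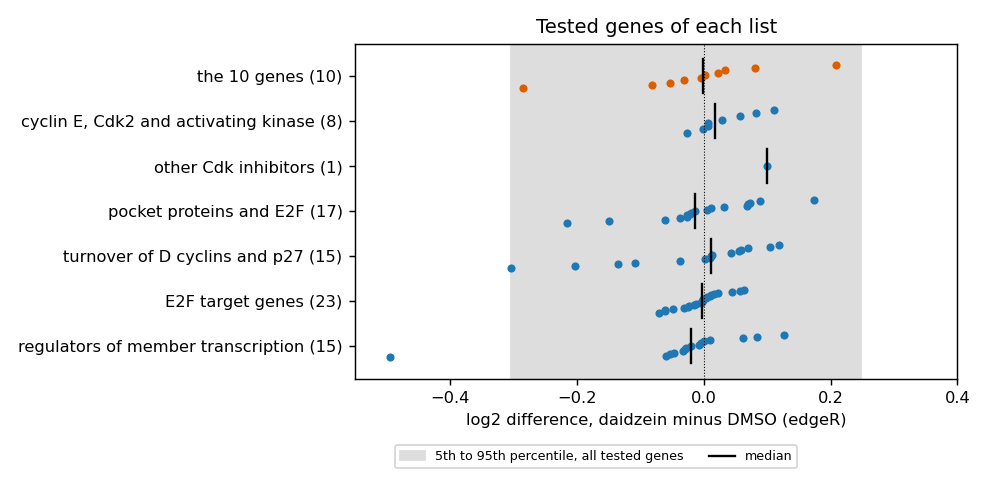
log2 difference of daidzein minus DMSO from edgeR for each tested gene (dots), by list with the number of genes in brackets. Vertical lines are list medians and the grey band spans the 5th to 95th percentile of all tested genes, -0.30 to 0.25, outside which the 10 genes have no member.

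For 7 of the 10 genes some exonic bases also belong to another annotated gene, in each case on the opposite strand. Since the strand setting of the counting is not stated and reads from a gene and its antisense partner cannot then be told apart, these levels are uncertain to that extent. The share of exonic bases was largest in Ccnd1, 23.4% with LTO1, and in Cdk4, 19.7% with Tspan31. Rb1 shared 8.11% with Rcbtb2 and 6.78% with Lpar6, and Ccnd3 4.11% with Bysl. A processed pseudogene, Ccnd3-ps, matched Ccnd3 at 96.3% identity over 881 bases and had 1 to 3 reads per library. Cdkn1b, Cdkn2c and Cdkn2d shared no exonic base with another gene.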

How the data were processed

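Gene expression was taken from 1 deposited table for 4 libraries, grouped by their titles. Per the submitters' processing notes the tools were HTSeq 0.6.1, HISAT2 2.0.1 and DESeq2, without their roles, and the build was mm9. The coordinates are those of GRCm38: 55141 of 55401 genes matched GENCODE M21 by identifier, and all 10 members had the same start and end. The authors deposited raw read counts as whole numbers beside FPKM values, which equal count over exonic length and library total within 0.01 for 100% of 65326 values. For the 107 symbols on several rows, the row richest in reads was used.

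Differences in counts were tested in R 4.3.3 by edgeR 4.0.16 (quasi-likelihood F test, TMM, default filterByExpr, Benjamini-Hochberg over 11700 genes, threshold 0.05), with 95% intervals from that fit. The steps were also run on simulated counts, drawn with the spread fitted to these libraries and with libraries taken as independent. Such a simulation cannot test how the replicates are related. FPKM served for levels, shares and limma 3.58.1 (trend, pseudocounts of 1 and 0.1). Shares were compared by exact permutation. Promoter windows came from RefSeq on GRCm38.p6, and similar transcripts from blastn 2.17.0 at 95% identity over at least 200 bases.

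The members and lists were chosen with earlier results of these data known. Named from each other list are the 3 genes with the highest mean FPKM among those with at least 1, the 2 with the smallest p and any past the threshold. Rbl1, Rbl2, the Foxo genes, Skp2, Fos, Fosb, the genes around Cdkn2a, overlapping genes, and sums and ratios of levels were chosen after values were seen. Alternatives were DESeq2 1.42.0, other scalings and filters, a prior count of 0.5, robust estimation, the replicate number as a block, limma and each library left out. The numbers were not taken to pair samples, because no label says so. In the 2 pairs the deviations of samples sharing a number correlated at 0.09 across genes. Counting noise lowers such a correlation, so that value cannot decide whether samples were paired.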

Additional observations from a re-analysis of the deposited data

How the results depend on the processing

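The count of members past the threshold, 0, was 0 in every alternative run. Over all genes the count, 2, was 1 by DESeq2, 11 without a filter on low counts, 1 with a filter of 5 CPM in 2 libraries, 27 with the replicate number as a block (replicate block) and 0 by limma trend on FPKM. Leaving out each library gave counts of 4 to 17, with the single library of an arm taken to vary as the other arm does. Of 150 recomputed member differences, 140 kept their direction and none passed the threshold. Most of the 150 came from refits of the same 4 libraries, which moved the differences little. Stability is therefore better judged on the fits with 1 library left out. The 10 that changed direction all came from leaving out a library and belonged to 6 genes, whose log2 differences then ran from -0.082 to 0.025 for Ccnd1, -0.105 to 0.003 for Ccnd3, -0.012 to 0.019 for Cdk4, -0.019 to 0.066 for Cdk6, -0.181 to 0.026 for Cdkn1a and -0.121 to 0.123 for Cdkn2d. With a library left out, the Ccnd3 share difference ran from -2.96 to 0.481 percentage points and the Cdk4 share difference from -0.0669 to 0.0295. The cause was not tested. Depth limits Rb1, Cdkn1b, Cdk6 and Cdkn2d most, at 214 to 563 reads per library.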
